A study of Mus musculus with 22 samples.

Results

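The genes described here are 9 members of the tight junction of the intestinal epithelium: the claudins Cldn2, Cldn3, Cldn4, Cldn7, Cldn15 and Cldn23, occludin (Ocln) and the scaffold proteins ZO-1 (Tjp1) and ZO-3 (Tjp3). They were taken by gene symbol from the deposited table of 52636 genes, and all 9 were found. RNA was sequenced from organoids of the adult mouse duodenum, with or without cold atmospheric plasma (CAP), a room-temperature ionised gas that forms reactive oxygen and nitrogen species in culture medium. There were 4 organoid lines, each grown from 1 wild-type CD1 mouse aged 2 months. All 4 were sequenced untreated (4 libraries), and lines 1, 2 and 4 were sequenced in each of 6 treated groups (3 libraries a group). The jet was used at a power of 50 W over 60 s. Under direct CAP it was aimed at the culture at day 1 and the medium was removed after 30 min or stayed on for 24 h. In indirect CAP organoids received medium of another treated culture, and in PAM (plasma-activated medium) they received medium treated without organoids, both given from day 1 or from day 2. In the groups' names used here these 4 groups are taken as exposed for 24 h, although the sample labels have 0.5 h for those from day 1 and 24 h for those from day 2. All cultures ended at day 3 in the study's design, so the day of exposure and the time from its start to harvest cannot be told apart. No group with gas but no plasma is among these libraries. By the labels the lines were at passage 12 (line 1), 14 (line 2) and 4 (lines 3 and 4). The sources differ for lines 3 and 4, with passage 2 given elsewhere.

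Tight junctions seal the space between neighbouring epithelial cells and set which ions and how much water pass through it. Claudins are the membrane proteins that form their strands. Some, such as Cldn2 and Cldn15, make channels for sodium and water, while others, such as Cldn3 and Cldn4, are best known for sealing. Occludin is a further strand protein, and ZO-1 and ZO-3 tie the strands to the actin cytoskeleton. In the small intestine claudins are laid out along the axis from crypt to villus, with Cldn2 mainly in the crypt and Cldn15 along both.

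Cldn4, the gene with the largest change among the 9, lies on chromosome 5 at chr5:134945119-134946934 on the minus strand of GRCm38 and has a single exon. Cldn3 lies next to it in the opposite orientation, at chr5:134986214-134987472 on the plus strand, also as 1 exon, and the start sites are 39.28 kb apart. Cldn2 lies on the X chromosome at chrX:139800828-139811386. The 250 bases before the start site of these 3 genes are shown because Cldn4 and its neighbour Cldn3 differed in response, and because Cldn2 was above the untreated level in one PAM group and below it in the other. The sequences are from RefSeq (GRCm38.p6), 5′ to 3′ on the strand of the gene, at chr5:134946935-134947184 (minus strand), chr5:134985964-134986213 (plus strand) and chrX:139800558-139800807 (plus strand). Capitals mark matches, on either strand, to the AP-1 motif TGANTCA and the GC box GGGCGG.
Cldn4: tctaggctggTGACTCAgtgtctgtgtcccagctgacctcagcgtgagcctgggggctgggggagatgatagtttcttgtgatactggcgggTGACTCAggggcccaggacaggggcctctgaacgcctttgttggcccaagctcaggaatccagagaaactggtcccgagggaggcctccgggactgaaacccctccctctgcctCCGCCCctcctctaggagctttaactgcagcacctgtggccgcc
Cldn3: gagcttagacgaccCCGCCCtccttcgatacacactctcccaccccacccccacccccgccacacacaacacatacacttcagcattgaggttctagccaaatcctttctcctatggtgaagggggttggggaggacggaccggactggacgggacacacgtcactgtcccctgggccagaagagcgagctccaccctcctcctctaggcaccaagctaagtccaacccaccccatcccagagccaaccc
Cldn2: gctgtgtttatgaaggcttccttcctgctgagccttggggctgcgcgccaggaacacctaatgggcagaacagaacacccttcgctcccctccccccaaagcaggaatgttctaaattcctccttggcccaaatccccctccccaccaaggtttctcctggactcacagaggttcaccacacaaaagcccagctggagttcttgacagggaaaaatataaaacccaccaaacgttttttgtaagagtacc
The Cldn4 sequence holds 2 AP-1 matches, from -240 to -234 and from -158 to -152 relative to the start site, and 1 GC box match from -44 to -39. The Cldn3 sequence holds 1 GC box match, from -236 to -231, and no AP-1 match. Among 27025 promoters of the same length, 6.87% held an AP-1 match, 0.326% held 2 or more, and 32.9% held a GC box match. No match was found in the Cldn2 sequence, also for TCF/LEF (CTTTGA, in 14.1% of promoters), CDX (TTTATNG, in 10.2%) and GRHL (AACCNGNTT, in 1.96%), and these 3 motifs had no match in the Cldn4 and Cldn3 sequences. The matches do not overlap one another, and a match is a description of the letters only. A promoter sequence was at hand for 8 of the 9 genes, the exception being Cldn23. Among these 8, the Cldn15 window also holds 1 AP-1 match (TGAGTCA, from -214 to -208). This window overlaps Cldn15 exons and is not printed. Whether any of these matches bears on expression was not tested.

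The deposited values are read counts brought by the authors to a common total of 20 M (M standing for mega), rounded up and called scaled values here. A longer gene therefore gives a higher value. About 19.4 to 28.7 M reads stood behind a library (median 22.5). Each of the 9 small intestinal epithelium markers was detected in every library, with summed values between 119409 and 200829 in all groups, while the 5 fibroblast markers summed to at most 17, the 4 endothelial to at most 28, the 4 immune to at most 74 and the 3 smooth muscle markers to at most 24. Of the defining markers, Fabp6 of the ileum reached at most 6, while the other ileum marker, Slc10a2, lay between 29 and 237, and the duodenal factor Pdx1 lay between 1077 and 1525. Fetal-like markers, known from regenerating epithelium, had sums between 1873 and 8526 in the untreated libraries and between 14653 and 30853 in those exposed for 24 h, and the 5 crypt base stem cell markers had sums between 32557 and 38876 and between 757 and 15040. The 7 Paneth cell markers had sums between 31359 and 44073 untreated and between 4593 and 30413 in the 24 h groups. In the 3 pooled groups exposed for 24 h from day 1 their median log2 fold change was -1.45. There 4 of 7 were lower by at least 2-fold at an adjusted p under 0.01 (limma), against 6.34% of all genes changed in either direction. The 7 goblet cell markers summed to between 81860 and 140927 untreated and between 19170 and 50007 with PAM from day 2. There 5 of 7 were lower at an adjusted p under 0.05, as 47.6% of all genes were in either direction. With PAM from day 1 they went the other way, at 86823 to 197222, with 2 of 7 higher and 0 lower (41.8% of all genes). The goblet list thus did not move in 1 direction, and the part of these lists in these results was not tested. In bulk RNA, fewer cells of a type and less RNA per cell cannot be told apart.

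Per kilobase of exon, Cldn3 and Cldn7 were the most abundant of the 9 in untreated organoids, at 5167 ± 149 and 4961 ± 245 scaled values per kb (SD, n = 4). Cldn15 followed at 3307 ± 291, Tjp3 at 1685 ± 68.7 and Cldn2 at 1491 ± 111. Ocln stood at 873 ± 53.0. Cldn4, at 567 ± 219, and Tjp1, at 468 ± 19.8, were lower, and Cldn23 was lowest at 248 ± 37.5. With PAM from day 2 this order was different, since Cldn4 reached 7592 ± 5029 per kb (SD, n = 3), beside Cldn3 at 7323 ± 1510.

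**Figure D1:**
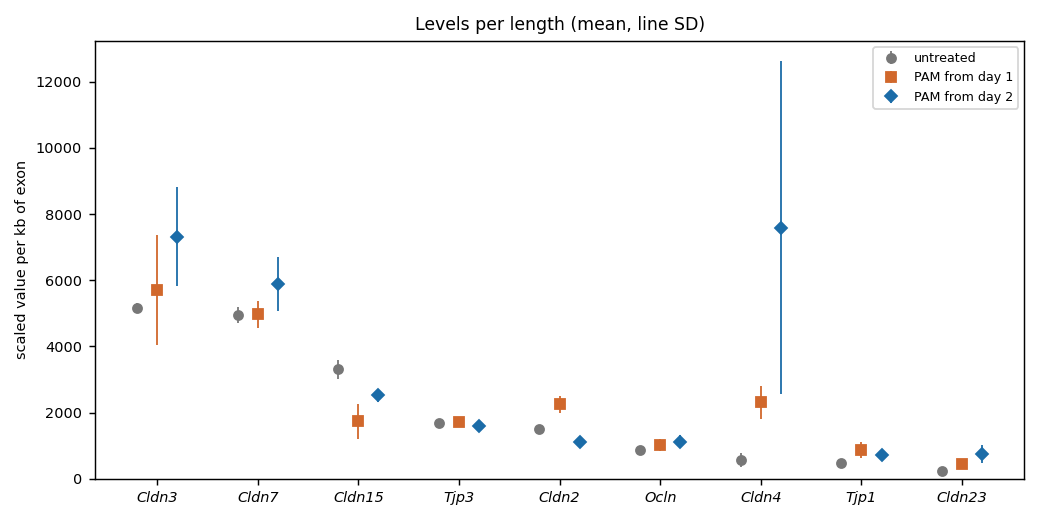
Scaled value per kb of exon for each gene (mean, line SD) in the 4 untreated libraries and in the 3 libraries each of PAM from day 1 and PAM from day 2, on a linear axis. Cldn4 goes from 567 in untreated organoids to 7592 with PAM from day 2, where its SD is also the widest of the 9.

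Cldn4 was higher with every form of 24 h exposure. Its scaled values in untreated lines 1 to 4 were 780, 643, 1523 and 1173. After direct CAP for 24 h they were 3193, 3681 and 4297 in lines 1, 2 and 4, and with PAM from day 1 they were 3482, 5227 and 3893. None of these treated libraries overlapped the untreated ones. With exposure from day 2 the values were higher again, at 4922, 9977 and 8196 with indirect CAP and 5190, 12796 and 23375 with PAM. Line 1 was the lowest of the 3 lines in both day 2 groups. Indirect CAP from day 1 gave 1987, 2439 and 3101, all above the untreated libraries, whereas direct CAP for 30 min gave 996, 2022 and 2938, and its library of line 1 lay within the untreated range.

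Against the untreated libraries, Cldn4 rose 3.80-fold after direct CAP for 24 h (log2 fold change 1.92 ± 0.27, SE, limma adjusted p = 0.00488) and 4.25-fold with PAM from day 1 (2.09 ± 0.29, adjusted p = 0.000934). It rose 7.58-fold with indirect CAP from day 2 (2.92 ± 0.33, adjusted p = 0.000309) and 11.9-fold with PAM from day 2 (3.57 ± 0.49, adjusted p = 0.00101). A change is said to pass the threshold, here and below, at an adjusted p under 0.01 with at least a 2-fold difference. Indirect CAP from day 1 gave 1.34 ± 0.29 (adjusted p = 0.0179), short of the threshold. A fit with a replicate block for the organoid line sets treated libraries against the untreated library labelled with the same line. It gave 1.56 (adjusted p = 0.00499), past the threshold. Line 3 has no treated library, so its untreated library, the highest untreated one for Cldn4 at 1523, has no weight in that value. Without the block, 1.56 was also the highest value among 7 fits that each left out 1 library, and 0 of these passed the threshold. The labels of untreated lines 1 and 2 are in doubt, as described below. Direct CAP for 30 min gave 0.89 ± 0.39 (adjusted p = 0.203). The 3 groups exposed for 24 h from day 1, pooled (9 libraries), gave 1.78 ± 0.25 (adjusted p = 0.000271), and 2.00 with the replicate block (adjusted p = 0.000176). Without the block, 2.00 was likewise the highest value among 13 fits of the pooled groups that each left out 1 library. The 9 pooled libraries are 3 organoid lines, each in 3 groups, and without the block the fit treats them as independent. The SE and p of the pooled groups, here and below, are therefore not those of 9 separate replicates. The call after 24 h of direct CAP was kept in 1 of 7 fits that each left out 1 library, the one without untreated line 3, and the other 6 gave adjusted p from 0.0109 to 0.0193 with log2 fold changes from 1.73 to 2.03.

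Cldn23, a claudin of differentiated gut epithelium, moved the same way at lower values. The untreated libraries of lines 1 to 4 had 361, 456, 511 and 505, and those of lines 1, 2 and 4 had 808, 1518 and 1074 with indirect CAP from day 2 and 937, 1928 and 1300 with PAM from day 2. Both groups lay wholly above the untreated range. Cldn23 rose 2.41-fold in the first (log2 fold change 1.27 ± 0.21, adjusted p = 0.00200) and 2.92-fold in the second (1.55 ± 0.24, adjusted p = 0.00158). In the groups exposed from day 1 it was 603, 872 and 706 after direct CAP for 24 h, 570, 753 and 560 with indirect CAP, and 638, 1157 and 743 with PAM. All of these too were above the untreated range. The log2 fold changes were 0.66 ± 0.17 (adjusted p = 0.0299), 0.45 ± 0.16 (adjusted p = 0.0709) and 0.85 ± 0.21 (adjusted p = 0.0127). Without the PAM library of line 1, the last of these was 1.03 (adjusted p = 0.00755) and passed the threshold, and without that of line 2 it was 0.60 (adjusted p = 0.0240). Direct CAP for 30 min gave 409, 504 and 676, which overlapped the untreated libraries, with a log2 fold change of 0.19 ± 0.19 (adjusted p = 0.554).

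Of the 9 genes, 1 (Cldn4) passed the threshold when the 3 groups exposed for 24 h from day 1 were pooled, against 6.34% of all genes tested. Cldn4 was also the 1 gene called after direct CAP for 24 h (2.17% of all genes) and with PAM from day 1 (10.2%). Cldn4 and Cldn23 were called with indirect CAP (11.9%) and PAM from day 2 (17.3%). No member passed it after direct CAP for 30 min (0.00564% of all genes), where 2 had an unadjusted p under 0.05 in limma (24.9% of all genes), nor with indirect CAP from day 1 (1.31%), where 4 did (38.6%). The counts of 1 or 2 in 9 stand near the share of all genes in the groups with the most changed genes. All comparisons with untreated share the same 4 libraries. Over all genes tested, the log2 fold change had a median of -0.134 with PAM from day 1 and -0.118 with PAM from day 2, and between -0.0788 and 0.017 in the other comparisons with untreated.

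**Figure D2:**
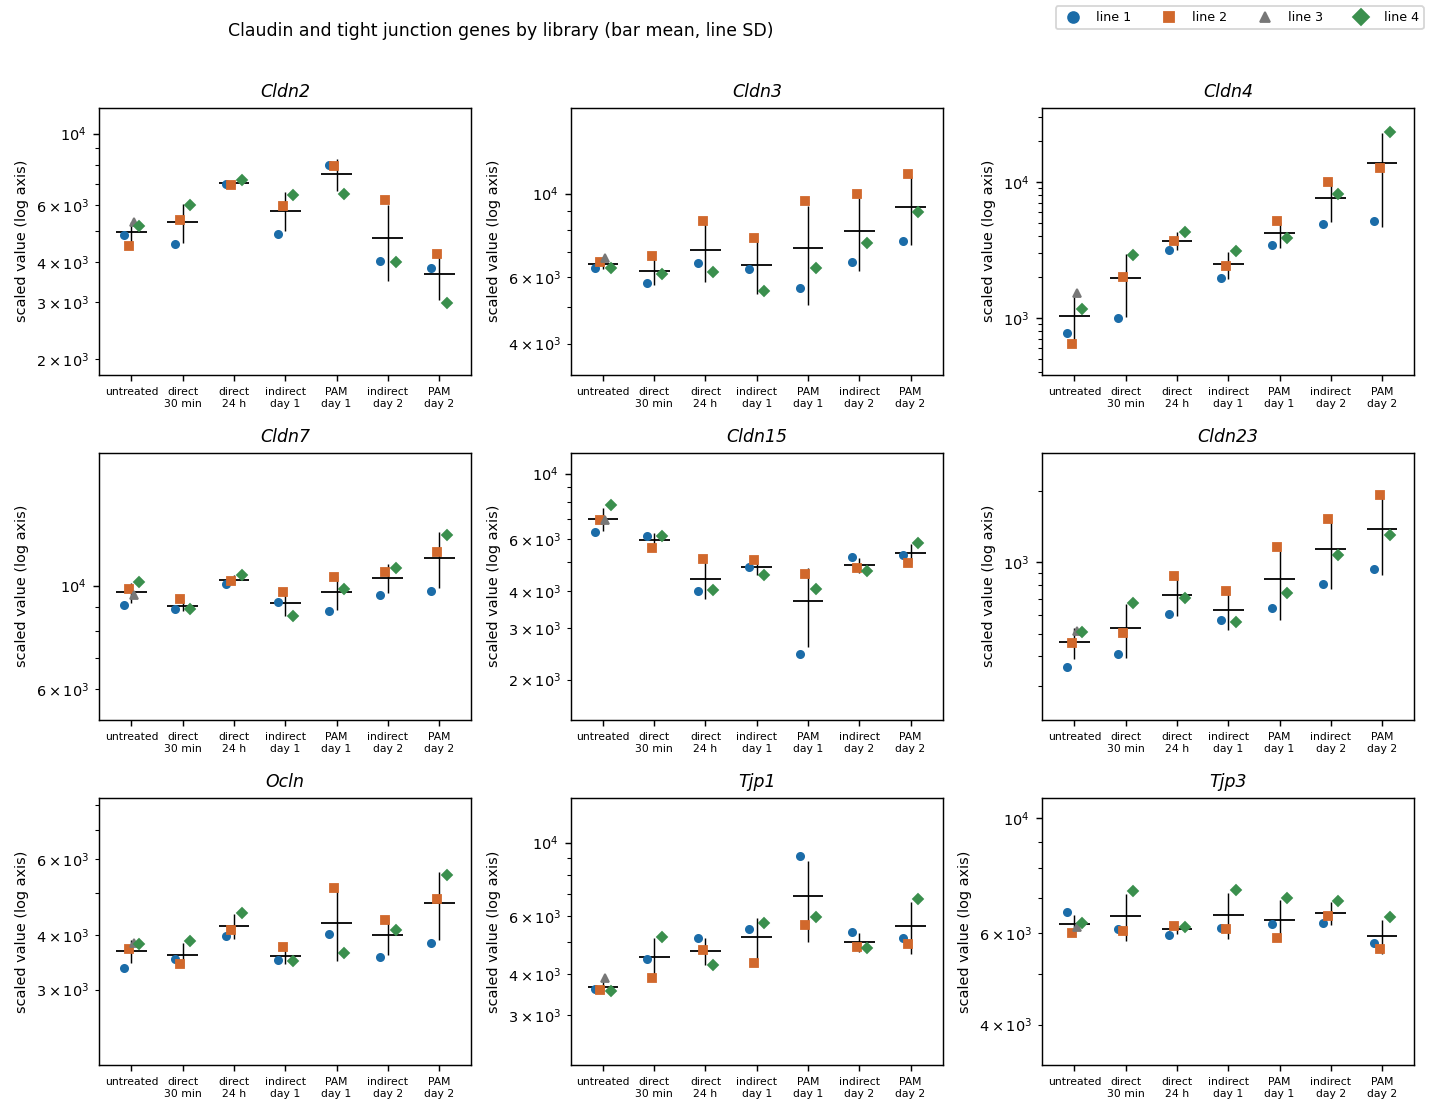
Scaled value of each gene (log axis) in the 22 libraries by group, with symbols for organoid lines 1 to 4, a bar for the group mean and a line for the SD. Cldn4 spans 643 to 23375 and Cldn23 361 to 1928, while Tjp3 stays between 5583 and 7277.

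The channel-forming claudins Cldn15 and Cldn2 went apart after direct CAP for 24 h and with PAM from day 1. With PAM from day 2 both were lower. Cldn15 was lower in all groups exposed for 24 h. Its values in untreated lines 1 to 4 were 6327, 6985, 6954 and 7831. After direct CAP for 24 h lines 1, 2 and 4 had 4003, 5117 and 4043, and with PAM from day 1 they had 2440, 4548 and 4062. In both groups every library lay below every untreated one. Indirect CAP from day 1 gave 4822, 5078 and 4519, and from day 2 5206, 4780 and 4664. PAM from day 2 gave 5284, 4995 and 5800, the nearest of the 24 h groups to the untreated level. Cldn15 did not pass the threshold in any comparison, as its log2 fold changes were under 1 in size. They were -0.68 ± 0.12 after direct CAP for 24 h (adjusted p = 0.00848), -0.54 ± 0.09 with indirect CAP from day 1 (adjusted p = 0.00877), -0.98 ± 0.20 with PAM from day 1 (adjusted p = 0.00519), -0.52 ± 0.09 with indirect CAP from day 2 (adjusted p = 0.00207) and -0.39 ± 0.10 with PAM from day 2 (adjusted p = 0.0147). With PAM from day 1 the value without the library of line 2 was -1.15, which passed the threshold, and quantile normalization also took it past, at -1.01. Without the library of line 1, which at 2440 was the lowest, it was -0.70. After direct CAP for 30 min the 3 libraries, at 6127, 5603 and 6162, were also below all untreated ones, with a log2 fold change of -0.23 ± 0.09 (adjusted p = 0.161).

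Cldn2 was above the untreated level after 24 h of direct CAP and with PAM from day 1, and below it with PAM from day 2. Its untreated values in lines 1 to 4 were 4846, 4486, 5309 and 5187. Direct CAP for 24 h gave 6980, 6913 and 7165 in lines 1, 2 and 4, and PAM from day 1 gave 7999, 7921 and 6501, all above the untreated libraries. PAM from day 2 gave 3842, 4218 and 2984, all below them. The log2 fold changes were 0.50 ± 0.09 (adjusted p = 0.00849), 0.59 ± 0.10 (adjusted p = 0.00264) and -0.44 ± 0.13 (adjusted p = 0.0246), none of them past the threshold for size. Indirect CAP gave 4894, 5976 and 6447 from day 1 and 4037, 6206 and 4010 from day 2. Both of these groups overlapped the untreated libraries, with log2 fold changes of 0.21 ± 0.11 (adjusted p = 0.182) and -0.09 ± 0.15 (adjusted p = 0.667). Cldn2 with PAM from day 2 was set directly against PAM from day 1. The groups did not overlap, as was the case in the lower direction for 16.9% of the 17354 genes tested, and the log2 difference was -1.03 ± 0.16 (adjusted p = 0.0505), short of the threshold. With all 7 groups in one fit, which draws the spread from 22 libraries, its adjusted p was 0.000426, past the threshold, and with the replicate block it was 0.0198, short of it.

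Tjp1, which encodes the scaffold ZO-1, was higher with all forms of treatment, by less than 2-fold. It stood at 3609, 3578, 3886 and 3552 in untreated lines 1 to 4 and at 9083, 5632 and 5973 with PAM from day 1 in lines 1, 2 and 4. The groups did not overlap. The log2 fold change was 0.88 ± 0.16 (adjusted p = 0.00283), and 1.01 without the PAM library of line 2, past the threshold. Without the library of line 1, the highest of the 22, it was 0.67. Every treated library was above every untreated one, narrowly so after direct CAP for 30 min (3900 in line 2 against 3886 in untreated line 3). The other treated groups lay between 3900 and 6766. Their log2 fold changes were 0.29 ± 0.10 after direct CAP for 30 min (adjusted p = 0.133), 0.36 ± 0.09 after direct CAP for 24 h (adjusted p = 0.0274), 0.49 ± 0.10 with indirect CAP from day 1 (adjusted p = 0.0167), 0.45 ± 0.07 with indirect CAP from day 2 (adjusted p = 0.00163) and 0.60 ± 0.12 with PAM from day 2 (adjusted p = 0.00480). The second scaffold, Tjp3, lay between 5583 and 7277 over all libraries. Its log2 fold changes lay between -0.08 ± 0.09 and 0.07 ± 0.07, with no adjusted p under 0.05.

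The sealing claudins Cldn3 and Cldn7 and occludin differed little from the untreated level. Cldn3, the neighbour of Cldn4 on chromosome 5, had 6364, 6593, 6727 and 6337 in untreated lines 1 to 4, and 7474, 11244 and 8940 with PAM from day 2, which lay above all of them. That group gave a log2 fold change of 0.48 ± 0.13 (adjusted p = 0.0192), and the other groups gave values from -0.06 ± 0.08 to 0.27 ± 0.13 with no adjusted p under 0.05. Line 2 had the highest Cldn3 value in each of the 6 treated groups. Cldn7, a claudin also found along the lateral cell membrane, ranged from 8586 to 12848 with log2 fold changes from -0.09 ± 0.07 to 0.24 ± 0.11. Ocln ranged from 3358 to 5522, and its log2 fold change of 0.35 ± 0.13 with PAM from day 2 had an adjusted p of 0.0543, although the 3 libraries, at 3849, 4854 and 5522, were all above the untreated ones. For Cldn7 and Ocln no adjusted p of these fits was under 0.05 in any comparison. With all 7 groups in one limma fit, PAM from day 2 gave adjusted p of 0.0337 (Cldn7) and 0.0205 (Ocln). Both were also under 0.05 there when the PAM library of line 1 was left out.

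**Figure D3:**
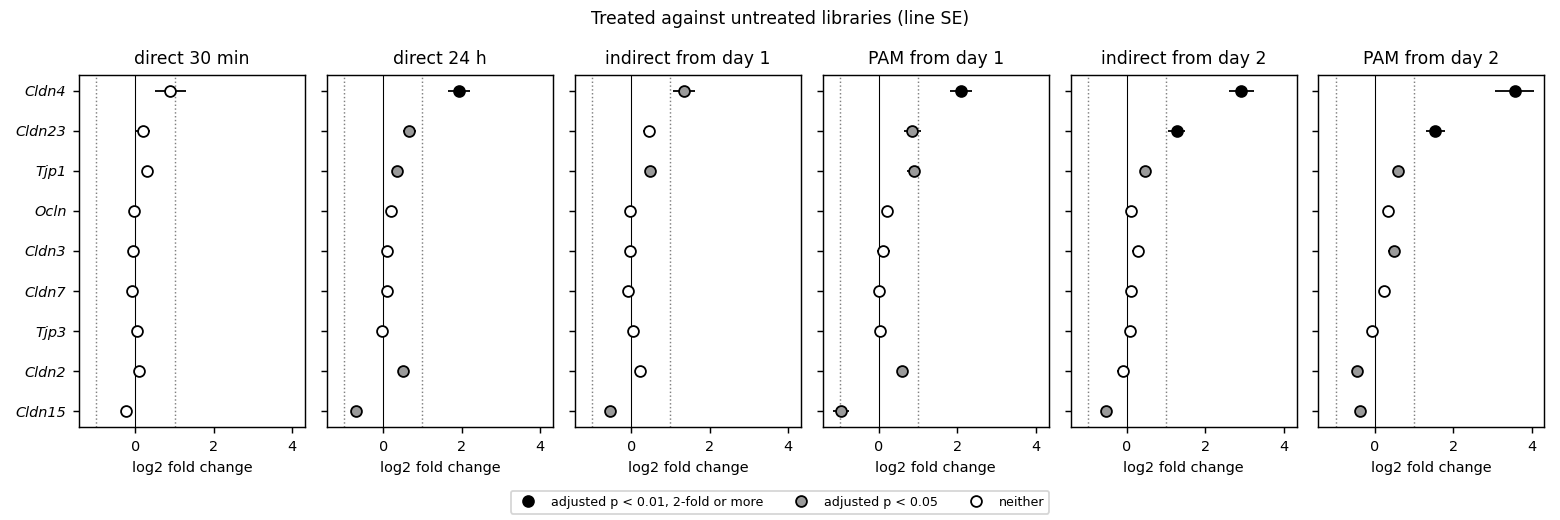
Log2 fold change of each gene against the 4 untreated libraries in the 6 treated groups (3 libraries each), with a line for the SE, which is hidden by the symbol where small, and dotted lines at 1 and -1. Cldn4 and Cldn23 reach 3.57 and 1.55 with PAM from day 2, and Cldn15 lies below 0 in all panels.

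Without the size limit, at an adjusted p under 0.05, the genes with a difference from untreated were 5 of 9 in the 3 pooled day 1 groups (33.5% of all genes tested), 5 with 24 h of direct CAP (17.3%), 3 with indirect CAP from day 1 (20.6%), 5 with PAM from day 1 (41.8%), 4 with indirect CAP from day 2 (43.8%) and 6 with PAM from day 2 (47.6%). These counts moved with the fit in a check chosen after seeing the data. With all 7 groups in one fit Cldn23 (adjusted p = 0.0899) and Tjp1 (0.111) were no longer among them after 24 h of direct CAP, which left 3, and each was kept in 3 of 7 fits without 1 library. The same fit gave 8 with PAM from day 2, which added Cldn7 and Ocln. The replicate block lost Tjp1 after 24 h of direct CAP (adjusted p = 0.0652) and, with PAM from day 2, lost Cldn2 (0.0903) and gained Ocln (0.0497). Leaving out 1 library gave 3 to 5 genes after 24 h of direct CAP, 2 to 3 with indirect CAP from day 1, 4 to 5 with indirect CAP from day 2 and 5 to 8 with PAM from day 2. Counted by overlap alone, the genes with every treated library above every untreated one were 5 of 9 with PAM from day 2 (20.7% of all genes), 3 with indirect CAP from day 2 (22.7%), 4 with PAM from day 1 (17.1%), 3 with indirect CAP from day 1 (16.7%), and 5 and 1 with 24 h and 30 min of direct CAP (11.6% and 12.4%). Those with every treated library below were 2 with PAM from day 2 (32.6%) and 1 in each other group, which held 25.8% of all genes with indirect CAP from day 2, 29.7% with PAM from day 1, 17.7% with indirect CAP from day 1, and 19.1% and 11.2% with 24 h and 30 min of direct CAP. The 9 genes had a median log2 fold change of 0.12 in the 3 pooled day 1 groups, 0.12 with indirect CAP from day 2 and 0.35 with PAM from day 2, beside -0.05, -0.01 and -0.12 for all genes tested.

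Treated libraries can also be set against the untreated library of the same line, which makes 18 pairs for each gene. Cldn4, Cldn23 and Tjp1 were higher in 18 of 18 pairs and Cldn15 was lower in 18 of 18. Ocln was higher in 15, Cldn2 in 12, Cldn3 and Cldn7 in 11 each and Tjp3 in 9. For Cldn4 the log2 differences ran from 0.35 (line 1, direct CAP for 30 min) to 4.32 (line 4, PAM from day 2). For Cldn2 they were above 0 in all 3 lines with PAM from day 1, at 0.72, 0.82 and 0.33 in lines 1, 2 and 4, and below 0 in all 3 with PAM from day 2, at -0.33, -0.09 and -0.80. The pairs of 1 line share their untreated library, and for lines 1 and 2 the untreated libraries were more like the treated libraries of the other of these lines than like those of their own (median correlations of 0.54 and 0.35 against 0.08 and 0.13). The count for Cldn23 depends on this. Line 1 after direct CAP for 30 min, at 409, was above the library labelled untreated line 1 (361) but below untreated line 2 (456). The same holds for Ocln, where that treated library, at 3518, lay above 3358 but below 3724. The counts for Cldn2, Cldn3 and Cldn7 depend on these labels too.

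**Figure D4:**
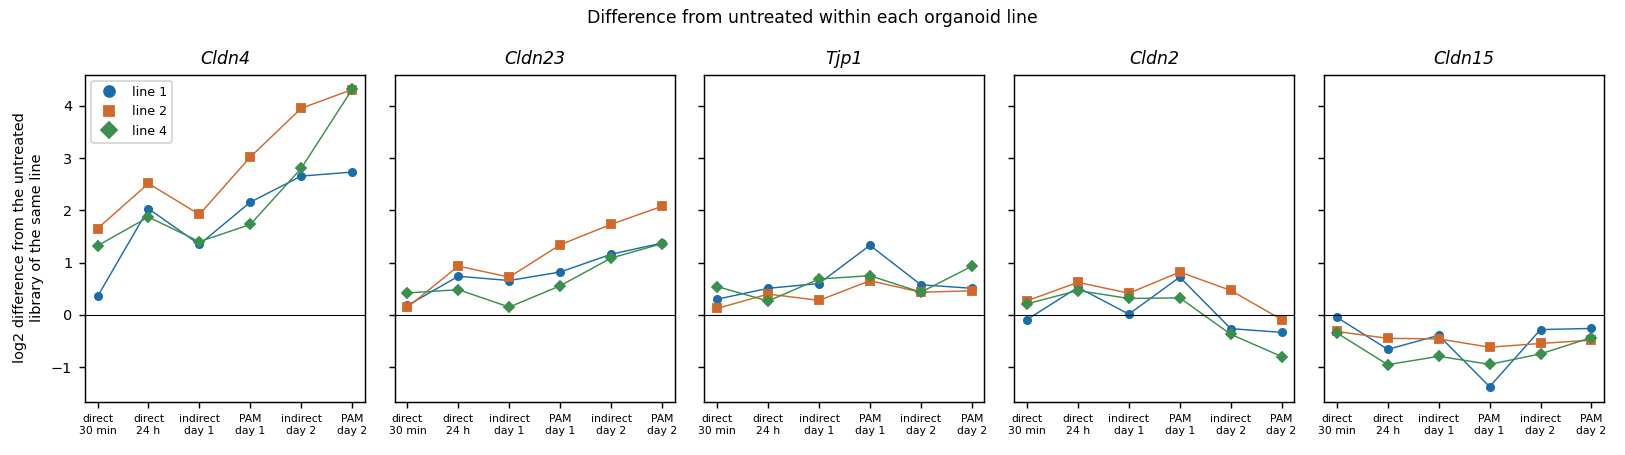
Log2 difference, as log2(value + 1), between each treated library and the untreated library of the same organoid line for 5 genes; the drawn lines join libraries of 1 organoid line and imply no order. Cldn4, Cldn23 and Tjp1 lie above 0 in 18 of 18 pairs, Cldn15 below 0 in 18 of 18, and Cldn2 above 0 with PAM from day 1 and below it with PAM from day 2.

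The treated groups were compared with each other to ask whether the form and the day of exposure mattered for these genes. None of the 9 passed the threshold in any of the 6 comparisons between treated groups, in which at most 0.0111% of all genes did. In limma, an unadjusted p under 0.05 was found for 3 of the 9 with direct CAP for 24 h against 30 min (21.4% of all genes), 1 with PAM against direct CAP (10.4%) and 1 with indirect against direct CAP (6.95%). It was found for 3 with PAM from day 2 against day 1 (26.8%), 2 with indirect CAP from day 2 against day 1 (21.7%) and 0 with PAM against indirect CAP from day 2 (9.48%). Cldn4 was higher with indirect CAP from day 2 than from day 1 by 1.58 ± 0.28 on the log2 scale (adjusted p = 0.0357). When the line was fitted as a replicate block, the same difference had an adjusted p of 4.43e-05 and passed the threshold. With all 7 groups in one fit it was 0.0608, and of 6 fits that left out 1 library 2 had an adjusted p under 0.05 and the highest was 0.147. The block fit holds no untreated library, so the doubt about the untreated lines does not touch it. For PAM from day 2 against day 1 the Cldn4 difference was 1.48 ± 0.50 (adjusted p = 0.124), and the groups overlapped. For direct CAP for 24 h against 30 min it was 1.03 ± 0.36 (adjusted p = 0.205), for PAM from day 1 against 24 h of direct CAP 0.16 ± 0.18 (adjusted p = 0.789), for indirect CAP begun at day 1 against 24 h of direct CAP -0.58 ± 0.18 (adjusted p = 0.629) and for PAM against indirect CAP from day 2 0.65 ± 0.54 (adjusted p = 0.717). Cldn23 differed by 0.82 ± 0.24 between indirect CAP from day 2 and day 1 (adjusted p = 0.109), by 0.70 ± 0.31 between PAM from day 2 and day 1 (adjusted p = 0.209) and by 0.28 ± 0.32 between PAM and indirect CAP from day 2 (adjusted p = 0.805). With the block the first of these had an adjusted p of 0.000599 and the second 0.0287, both at less than a 2-fold difference. Cldn15 was 0.59 ± 0.23 higher with PAM from day 2 than from day 1 (adjusted p = 0.166). Tjp1 was 0.52 ± 0.19 higher with PAM from day 1 than after direct CAP for 24 h (adjusted p = 0.453), and 0.28 ± 0.22 lower with PAM from day 2 than from day 1 (log2 difference -0.28, adjusted p = 0.446). For Cldn2 the difference between indirect CAP from day 2 and day 1 was -0.30 ± 0.19 (adjusted p = 0.417).

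Within each gene the group means can be put in order, and neighbours are described as separate where their difference is over the pooled SD of both groups and their libraries do not overlap, which is no test. For Cldn4 the order of group means was PAM from day 2 (13787 ± 9133), indirect CAP from day 2 (7698 ± 2564), PAM from day 1 (4201 ± 912), 24 h of direct CAP (3724 ± 553), indirect CAP from day 1 (2509 ± 560), direct CAP for 30 min (1985 ± 972) and untreated (1030 ± 398). Among these neighbours, direct CAP for 24 h and indirect CAP from day 1 alone were separate, at 3193 for the lowest library of the first and 3101 for the highest of the second, and limma gave this pair an adjusted p of 0.629. For Cldn2 the means ran from PAM from day 1 (7474 ± 843) over direct CAP for 24 h (7019 ± 131) to PAM from day 2 (3681 ± 632), and the separate neighbours were direct CAP for 24 h and indirect CAP from day 1 (5772 ± 796), again with an adjusted p of 0.629. For Cldn15 the untreated mean of 7024 ± 617 was separate from the next, 5964 ± 313 after direct CAP for 30 min (adjusted p = 0.161), and no lower neighbours were.

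Likeness of pattern was measured as the root mean square difference between the 7 group means of 2 genes on the log2 scale, each centred on its own mean, among 10542 genes with a mean value of at least 100. The 3 genes most like Cldn4 were Zfand2a (0.19), Ttyh1 (0.22) and Hs3st1 (0.22), where Cldn4 itself varied by 1.12. For Cldn23 they were Tnfsf9 (0.07), Coq10b (0.08) and Orai2 (0.08). For Cldn2 they were Ei24, Gusb and Eci2 (0.07 each), for Cldn15 Tmed1 (0.05), Aars2 (0.06) and Nags (0.07), and for Tjp1 Khnyn (0.05), Fat1 (0.05) and AI661453 (0.06). Among the 9 genes, the pair most alike was Cldn7 and Ocln (0.06) and the pair least alike Cldn4 and Cldn15 (1.29). Cldn4 and its neighbour Cldn3 differed by 0.96.

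Of the 29 other claudin genes in the table, 23 never reached a value of 10 and 12 were at 0 in every library. Cldn12, the most abundant of them, lay between 969 and 1539. Cldn18, known from the stomach, lay between 1 and 289 with a median of 8.5, and Cldn8 between 6 and 136. In the comparisons with untreated 4 other claudins could be tested, and 0 passed the threshold in limma. With PAM from day 1, 1 of them had an unadjusted p under 0.05, and 0 did in the other comparisons.

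Beyond claudins, the other transmembrane proteins of the junction had 1 of 10 tested genes past the threshold in the 3 pooled day 1 groups, against 6.34% of all genes. This was Ildr1, an angulin that marks the corner where 3 cells meet. It stood at 469 ± 166 in the untreated (SD, n = 4) and 2316 ± 1054 in the 9 treated libraries of 3 lines, a log2 fold change of 2.22 ± 0.36 (adjusted p = 0.000701). Ildr1 also rose after direct CAP for 24 h (2.15 ± 0.36, adjusted p = 0.00763), with PAM from day 1 (2.82 ± 0.30, adjusted p = 0.000343), with indirect CAP from day 2 (1.71 ± 0.32, adjusted p = 0.00326) and with PAM from day 2 (2.04 ± 0.40, adjusted p = 0.00453). With indirect CAP from day 1, 0 of the 10 genes of this list passed the threshold. After direct CAP for 30 min Ildr1 gave 0.73 ± 0.41 (adjusted p = 0.303). Among 20 scaffold and plaque genes tested, 3 rose and 0 fell past the threshold in the 3 pooled day 1 groups, against 6.34% of all genes in either direction. They were Pard6b, a cell polarity protein (1.01 ± 0.14, adjusted p = 0.000281), Cgnl1, a relative of cingulin (1.20 ± 0.22, adjusted p = 0.00141), and the angiomotin relative Amotl1 (2.61 ± 0.54, adjusted p = 0.00267). Taken singly, 24 h of direct CAP and indirect CAP from day 1 had 0 of 20 past the threshold (2.17% and 1.31% of all genes). PAM from day 1 had 3, all higher (10.2%). Pard6b rose from 1737 ± 279 in untreated to 7493 ± 2452 with PAM from day 2 (SD, n = 3), by 2.07 ± 0.23 (adjusted p = 0.000445), and by 1.60 ± 0.14 with indirect CAP from day 2 (adjusted p = 0.000101). Amot, the angiomotin gene itself, fell from 2504 ± 327 to 853 ± 150 with PAM from day 2, a log2 fold change of -1.56 ± 0.15 (adjusted p = 0.000347), and to 1142 ± 133 with indirect CAP from day 2 (-1.13 ± 0.12, adjusted p = 0.000229).

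The adherens junction list, which holds the cadherin and catenin genes, had 0 of 10 genes past the threshold in the day 1 groups in limma. At an adjusted p under 0.05, 7 were higher and 2 lower. Of all genes, 6.34% passed the threshold and 33.5% had an adjusted p under 0.05. With PAM from day 2, 1 of the 10 passed the threshold, against 17.3% of all genes. This was Nectin1, which fell from 2786 ± 365 to 1357 ± 254 (-1.05 ± 0.16, adjusted p = 0.00139). Of the 9 regulators, 1 passed the threshold with indirect CAP from day 2, near the share of all genes (11.9%). This was Mylk, the myosin light chain kinase that acts on junction tension, which fell from 1053 ± 177 to 427 ± 203 (-1.39 ± 0.27, adjusted p = 0.00447). The list medians in the day 1 groups were 0.34 for the other transmembrane proteins, 0.22 for scaffold and plaque, 0.29 for the adherens junction, 0.06 for regulators and 0.26 for other claudins, beside -0.05 for all genes tested. With PAM from day 2 they were 0.66, 0.41, 0.52, 0.13 and 0.40, beside -0.12.

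**Figure D5:**
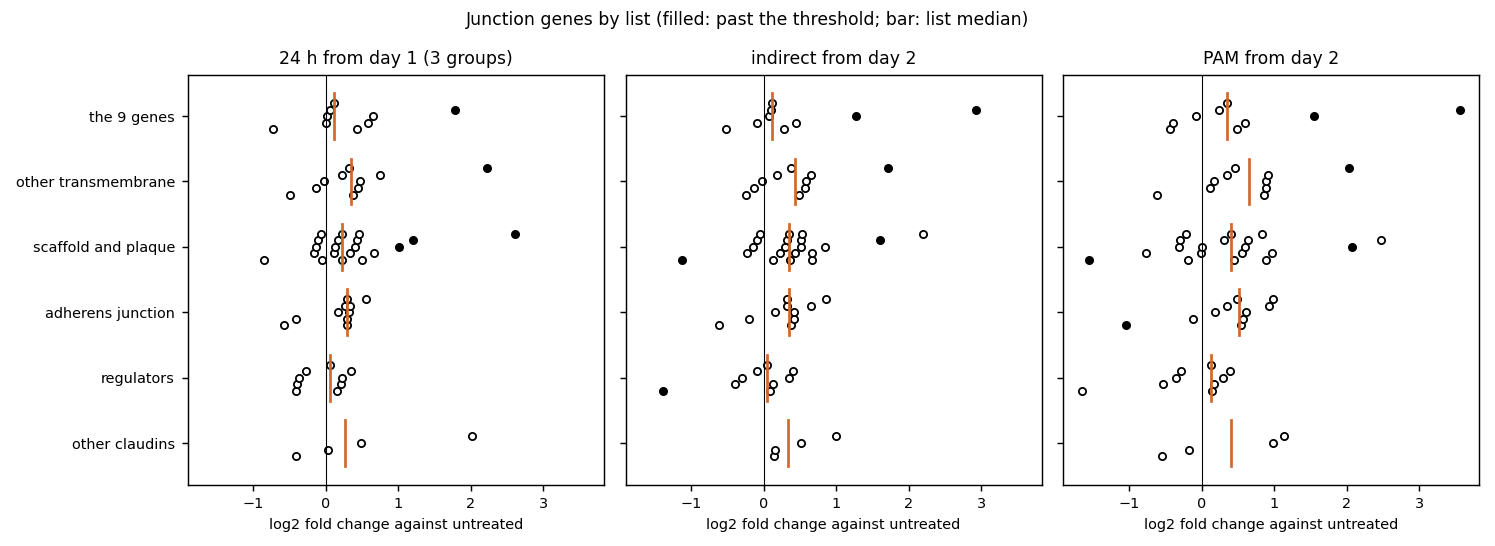
Log2 fold change against untreated for every tested gene (points, spread vertically for view) of the 9 genes and of 5 lists of junction genes, with filled points past the threshold and a bar at the list median. Cldn4 and Ildr1 lie to the right in all 3 panels, and Amot (-1.56) and Nectin1 (-1.05) to the left with PAM from day 2.

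The 9 genes lie on 7 chromosomes of GRCm38. Beside the loci given above, these are Cldn15 at chr5:136966616-136975858 (plus strand), Cldn7 at chr11:69964779-69967885 (plus strand), Cldn23 at chr8:35824712-35826559 (minus strand), Ocln at chr13:100496507-100552718 (minus strand), Tjp1 at chr7:65296165-65527781 (minus strand) and Tjp3 at chr10:81273207-81291581 (minus strand). No stretch of 100 bases in their exons was found in the exons of another gene. Exons of Cldn3 share 40 bases with the antisense gene Wbscr25, and those of Tjp3 share 40 bases with Apba3 on the opposite strand, 3.18% and 1.08% of their exon length. The counting is not stated to use strand, so reads in these bases cannot be told apart.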

How the data were processed

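RNA of 22 libraries of mouse duodenal organoids was sequenced as paired reads of 100 bases. Per the labels and the study's methods, the authors trimmed reads with Trimmomatic 0.36, aligned them to GRCm38 with STAR 2.5.3a and counted them with HTSeq 0.9.1. The deposited score per gene and library is that count brought by the authors to a common total of 20 M (M standing for mega) and rounded up, so no test for raw counts was run. Reads per library were estimated from the spacing of low values.

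Tests used limma 3.58.1 (trended moderated test, R 4.3.3) on log2(value + 1) over genes with a value of at least 10 in at least 3 of the libraries fitted, with Benjamini-Hochberg adjustment over all of them. The method was tested on simulated data. Figures, motif searches and loci (GENCODE vM21) used Python 3.11.15. In 24 replicate pairs checked, the libraries differed by more than counting noise.

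Replicate numbers are organoid lines per the labels. After group means were removed, treated libraries of one line correlated in 45 of 45 pairs (r from 0.219 to 0.806), which supplied the replicate block. All 9 members are named. Other junction genes are named where past the threshold against untreated or among a list's extremes, and for likeness the 3 nearest genes are named. The members, lists and motifs were chosen with earlier results of these data known. Alternatives were the block, all groups in one fit, leaving out each library, quantile normalization, an adjusted p under 0.05, a pseudocount of 10, and testing unfiltered genes.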

Additional observations from a re-analysis of the deposited data

Results flagged for a closer look

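Each of the 9 genes was checked for a single library far from the rest. This was done in the 4 untreated libraries and in the 9 exposed for 24 h from day 1, which made 18 groups. By Dixon's criterion 3 values stood apart. Among independent libraries of 1 population, chance meets this criterion in about 1 of 20 groups. The 9 libraries from day 1 are 3 organoid lines in 3 treated groups, so this rate does not hold for them. Tjp1 was highest, at 3886, in the untreated library of line 3, with the other untreated libraries between 3552 and 3609. That value met the criterion only narrowly. Among the 9 libraries exposed for 24 h from day 1, Tjp1 was highest, at 9083, and Cldn15 lowest, at 2440, in the same library, that of line 1 with PAM from day 1.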

How the results depend on the processing

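For the 9 genes, 117 fold changes were tested in 13 comparisons and refitted in 1521 alternative fits. Every call of Cldn4 and Cldn23 kept its direction and its side of the threshold under the replicate block, all 7 groups in one fit, quantile normalization, no filter and a pseudocount of 10, and also without any single library, except for Cldn4 after direct CAP for 24 h. There, leaving out 1 library gave between 0 and 1 called genes. With PAM from day 1 it gave between 1 and 3. Quantile normalization gave 2 genes with PAM from day 1 instead of 1. The replicate block gave 1 instead of 0 with indirect CAP from day 1 and 1 instead of 0 for indirect CAP from day 2 against day 1, each time Cldn4, and changed no other call. All groups in one fit gave 1 instead of 0 for PAM from day 2 against day 1, which was Cldn2. Without the size limit, at an adjusted p under 0.05, the counts were 5 in the 3 pooled day 1 groups, 5 after 24 h of direct CAP, 3 with indirect CAP from day 1, 5 with PAM from day 1, 4 with indirect CAP from day 2, 6 with PAM from day 2 and 1 for indirect CAP from day 2 against day 1. The cause of these moves was not tested. Of the 63 group means of the 9 genes, 63 moved by less than 1 SD under quantile normalization.

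Signs changed in 46 fits of 22 fold changes, none larger than 0.19 in size and none with an adjusted p under 0.58. Under quantile normalization Cldn7 and Tjp3 were at -0.0376 and -0.0133 in the pooled day 1 groups and at -0.0632 and -0.0250 with PAM from day 1, where the block gave Cldn7 -0.00313. Leaving out 1 library gave ranges of -0.0254 to 0.0314 (Cldn7) and -0.0137 to 0.0377 (Tjp3) in the day 1 groups, -0.0831 to 0.00413 (Ocln) and -0.0425 to 0.0871 (Tjp3) after direct CAP for 30 min, and, for Cldn3 after direct CAP for 24 h, -0.0314 to 0.193. They were, with indirect CAP from day 1, -0.142 to 0.0911 (Cldn3) and -0.0313 to 0.0961 (Tjp3), with PAM from day 1 -0.123 to 0.259 (Cldn3), -0.0522 to 0.0674 (Cldn7) and -0.0487 to 0.0788 (Tjp3), with indirect CAP from day 2 -0.298 to 0.0171 (Cldn2), and for PAM from day 1 against direct CAP for 24 h -0.00571 to 0.287 (Cldn4).

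With 3 libraries in each treated group, the SE of a log2 difference between treated groups was as high as 0.54, for Cldn4 between PAM and indirect CAP from day 2. The values are scaled, so the counting error of a single value is known only through the estimated depth. An alternative test on raw counts was not run.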
